A study of Mus musculus with 11 samples.

Results

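Gene expression in RT101 cells that grew as colonies over soft agar was compared with that in RT101 cells grown as an attached monolayer. The comparison rests on the 3 arrays titled RT101 colonies and the 2 titled RT101 monolayer, 5 of the 11 arrays of the series. RT101 is a tumorigenic variant of JB6, a mouse epidermal cell line, and received no treatment in either state; it is a single line. Colonies were taken on day 7, and the labels give no time in culture for the monolayers. The other 6 arrays hold the parental JB6 clone 41-5A with basic fibroblast growth factor (bFGF, 10 ng/ml for colonies), 3 as colonies and 3 as monolayers that the source names call treated. They served to estimate each gene's spread and to show where the colony change of RT101 differed from that of the parental clone, here called bFGF-JB6. All arrays of that clone are labelled as bFGF-treated and RT101 was untreated, so line and bFGF cannot be told apart in that difference. The protocols list the same medium with fetal bovine serum, glutamine and gentamicin for all groups.

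Most normal cells stop dividing when they lose contact with a surface, and growth as colonies in agar is a classic laboratory sign of transformation. A cell in agar lacks the spread shape and matrix traction that feed signals through integrins, actin and the cofactors of TEAD factors. Amino acid supply is sensed through the transcription factor ATF4, which drives genes of amino acid uptake and synthesis, and sterol supply through SREBP2, which drives genes of cholesterol synthesis.

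Values are RMA signals on the log2 scale, so a difference of 1 is 2-fold. The RT101 arrays had medians of 5.82 to 5.91. The monolayer arrays correlated at 0.9965, the colony arrays at 0.9973 to 0.998, and colony with monolayer arrays at 0.976 to 0.9784. Each of 12393 genes was read from its brightest probe set. Of the genes named here 87 have other probe sets, 128 in all. Tested with every probe set, 102 of these changed in the same direction and were called, 18 had that direction without a call, and 8 had the opposite direction without a call; the latter are given where the gene is described. Signals at or below 3.84, the lower quartile averaged over the 5 arrays, are called low here, where the scale compresses folds. Whether the arrays of each group represent separate cultures is not stated in the labels; the p-values then reflect only the spread among these arrays, which may be technical. In bulk samples, fewer cells of a kind and less RNA per cell cannot be told apart.

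The epidermal origin was checked against marker genes. Of 21 measured keratinocyte markers, 11 were low in both RT101 groups. Among them were the keratin genes Krt14 and Krt1, the epidermal regulator Trp63, E-cadherin (Cdh1) and desmoplakin (Dsp). The others, Krt5, Krt6a, Krt8, Krt10, Krt15, Pkp1, Itga6, Lor, Ivl and Sfn, were not low in either group. Mean signals in monolayers and colonies were 5.18 and 5.13 for Krt5, 5.99 and 6.25 for Lor, and 3.97 and 3.94 for Ivl. Of the 21 markers 0 rose and 1, the integrin gene Itga6, fell. Of 20 fibroblast markers only Lum, Thy1 and Fap were low in both groups, 13 rose and 0 fell in colonies, and the summed linear signal was 20460 to 21050 on monolayer arrays and 34590 to 35270 on colony arrays. Of 14 macrophage markers 2 rose (Lyz2 and Cd14) and 0 fell, with sums of 348.4 to 351.8 and 390.1 to 424, and 7, including Ptprc, Cd68, Adgre1 and Itgam, were low in both groups. No marker of endothelial cells (11 measured) or skeletal muscle (11) was called. Of adipocyte markers 2 of 8 rose, and of melanocyte markers 1 of 9 fell. By an unadjusted limma p under 0.05, 0 keratinocyte markers rose, 0 fibroblast and 2 macrophage markers fell, and 0 endothelial or muscle markers moved.

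Of the 12393 genes, 4013 (32.4%) passed a limma adjusted p of 0.05. In colonies 2102 genes (17%) rose and 1911 (15.4%) fell, of which 423 (3.41%) rose and 294 (2.37%) fell by at least 2-fold. The median change over all genes was -0.013 on the log2 scale. Setting the array medians equal moved it by -0.0887 and gave 1709 genes up and 2556 down, so that 40.1% instead of 52.4% of calls were increases; cyclic loess gave 2202 and 1926 (53.3% increases). A positive list median smaller than that shift therefore turns negative under median centring.

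Genes that rose and fell numbered 78 and 62 of 481 transcription factors and 51 and 49 of 494 transporters, and in both classes the larger direction turned under median centring (67 and 75, and 38 and 70). They numbered 62 and 18 of 394 receptors, 103 and 42 of 550 secreted factors, and 203 and 93 of 735 metabolic enzymes, where increases stayed the larger group under median centring (53 and 34, 94 and 54, and 181 and 118). As shares, 15.7% of receptors rose and 4.57% fell, and 27.6% of metabolic enzymes rose and 12.7% fell, against 17% and 15.4% of all genes. In RT101 monolayers 36.3% of receptors, 35.3% of secreted factors and 22.2% of metabolic enzymes were low, against 21.3% of all genes. A gene already low has little room to fall, and the part of this in the counts was not tested.

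**Figure D1:**
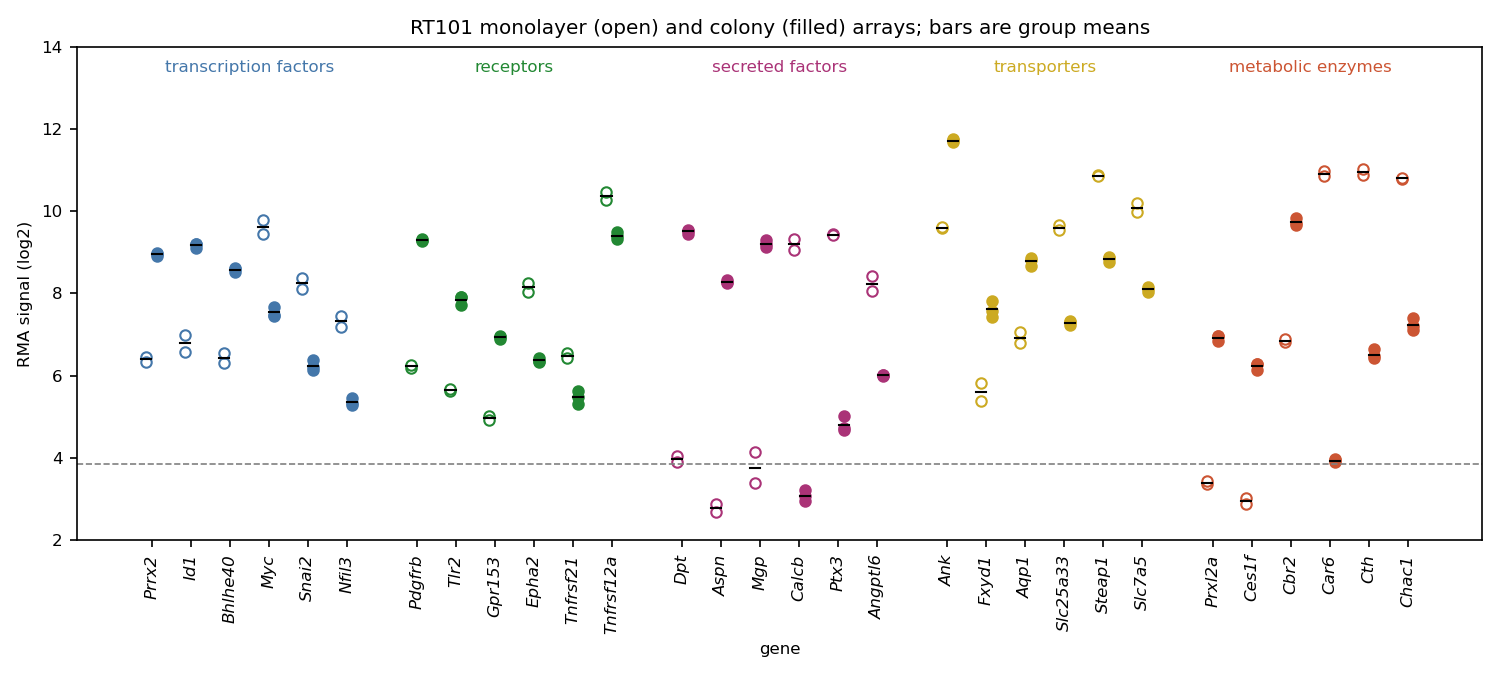
Signals (log2, vertical axis) of the 3 genes that rose most and the 3 that fell most in each of 5 classes; open circles are the 2 RT101 monolayer arrays, filled circles the 3 colony arrays, bars the group means, and the dashed line the lower quartile of 3.84. Only called genes without overlap between the groups could be chosen, so the separation seen was fixed by the choice. The longest distances were those of Car6, Calcb, Dpt, Aspn and Mgp.

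Among transcription factors, Prrx2, Id1 and Bhlhe40 rose most, while Myc, Snai2 and several stress-responsive leucine zipper genes fell. Prrx2, a paired-related homeobox gene of mesenchyme, read 6.45 and 6.33 on the monolayer arrays and 8.99, 8.97 and 8.92 on the colony arrays (5.93-fold, log2 SE 0.12, limma adjusted p = 2.54e-09). Id1, whose product binds helix-loop-helix factors and keeps them off DNA, read 6.57 and 6.99 in monolayers and 9.21, 9.20 and 9.12 in colonies (5.26-fold, log2 SE 0.17, limma adjusted p = 1.4e-07). Bhlhe40, a repressor within the circadian clock, read 6.31 and 6.54 in monolayers and 8.62, 8.60 and 8.52 in colonies (4.44-fold, log2 SE 0.09, limma adjusted p = 1.37e-09). In all 3 genes every colony array was above both monolayer arrays, as it was for 27.9% of all genes, and 28.2% of genes had every colony array below both. Genes named for the size of their change were drawn only from called genes without overlap. For those genes the absence of overlap, here and below, was a condition of the choice.

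The helix-loop-helix list had 14 members up and 5 down of 70 (median 0.0374), with 3 down without RT101 monolayer replicate 2. Besides Id1, the related Id3 and Id2 rose by 1.88 and 1.84 on the log2 scale; another Id2 probe set was at -0.011. Ahr, the aryl hydrocarbon receptor, rose by 2.03, Tcf4, an E protein that ID proteins bind, by 1.80, Mxd4, a MAX partner that opposes MYC, by 1.38, and Srebf2, which encodes SREBP2, by 0.99. Another Ahr probe set was at 0.33 (limma adjusted p = 0.271), not called. Myc, the growth regulator that shares the partner MAX, read 9.45 and 9.79 in monolayers and 7.68, 7.44 and 7.48 in colonies (4.25-fold, log2 SE 0.14, limma adjusted p = 1.08e-07). Its colony arrays were all below both monolayer arrays, so Myc and its antagonist Mxd4 moved in opposite directions. Of the clock activators in this list, Arntl fell by 0.28 and Clock fell by 0.60. The call for Arntl was lost without RT101 monolayer replicate 1 or 2 or without colony replicate 1 or 3 (limma adjusted p = 0.0517 to 0.0922), and that for Clock when its probe sets were averaged (limma adjusted p = 0.128), the second being at 0.21.

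Snai2, a zinc finger repressor of epithelial genes, read 8.38 and 8.11 in monolayers and 6.12, 6.22 and 6.37 in colonies (4.03-fold, log2 SE 0.14, limma adjusted p = 1.05e-07). Its relative Snai1 read 5.33 and 5.56 in monolayers and 6.81, 6.50 and 6.77 in colonies (2.37-fold, log2 SE 0.18, limma adjusted p = 0.000105). Here the colony arrays lay below the monolayer arrays for Snai2 and above them for Snai1. The TEAD factor genes Tead4 and Tead1 changed by -1.22 and -0.94, and Wwtr1, which encodes their cofactor TAZ, rose by 1.30. Ankrd1, an ankyrin repeat gene widely used as a readout of that cofactor, read 7.63 and 7.83 in monolayers and 4.01, 4.15 and 4.18 in colonies (12.3-fold, log2 SE 0.15, limma adjusted p = 1.14e-09). KLF, SP and EGR genes had 2 members up and 7 down of 24 (median -0.116), with Klf5 and Klf6 at -1.50 and -1.16. Ets1, of the ETS family, fell by 1.46.

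Basic leucine zipper genes, the family of ATF4, C/EBP, FOS and JUN proteins, had 11 members up and 16 down of 47 (median -0.0754), a called share of 57.4%. Nfil3, a repressor of clock-controlled genes, read 7.18 and 7.46 in monolayers and 5.45, 5.27 and 5.33 in colonies (3.91-fold, log2 SE 0.15, limma adjusted p = 3.59e-07). Cebpg, whose product dimerises with ATF4, fell by 1.85, and Ddit3, which encodes the stress factor CHOP, fell by 1.63. Atf3, Jdp2 and Fosl1, all partners in AP-1 dimers, fell, with changes of -1.33, -1.29 and -1.10; another Jdp2 probe set was at 0.25. Atf4 read 12.31 and 12.37 in monolayers and 11.39, 11.29 and 11.30 in colonies (2.02-fold, log2 SE 0.10, limma adjusted p = 2.77e-06), again without overlap. ATF4 protein is known to be set largely by translation, which arrays do not read.

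Other leucine zipper genes rose. Dbp, an output gene of the clock, read 5.55 and 5.65 in monolayers and 7.57, 7.48 and 7.34 in colonies (3.63-fold, log2 SE 0.14, limma adjusted p = 2.75e-07). Its relatives Hlf and Tef, also of the PAR group, rose by 1.45 and 0.67. Another Hlf probe set was at 0.51 (limma adjusted p = 0.0594) and other Tef probe sets were at -0.073 and 0.54, none called. Cebpd, an acute-phase regulator, rose by 1.60 and Fos by 0.95, while Jun fell by 0.78. The list thus moved both ways, with Atf4, Cebpg and Ddit3 falling and the 3 PAR genes rising. STAT, IRF, NF-kB and NFAT genes had 9 members up and 1 down of 23 (median 0.171; 0 down without monolayer or colony replicate 1 of RT101). Stat3, the signal carrier of IL-6 family cytokines, read 7.86 and 7.79 in monolayers and 9.29, 9.32 and 9.26 in colonies (2.76-fold, log2 SE 0.09, limma adjusted p = 2.8e-08), and Stat5a rose by 1.32. Second probe sets of Stat3, Cebpd and Atf4 were not called, at 0.28, 0.04 and -0.27.

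**Figure D2:**
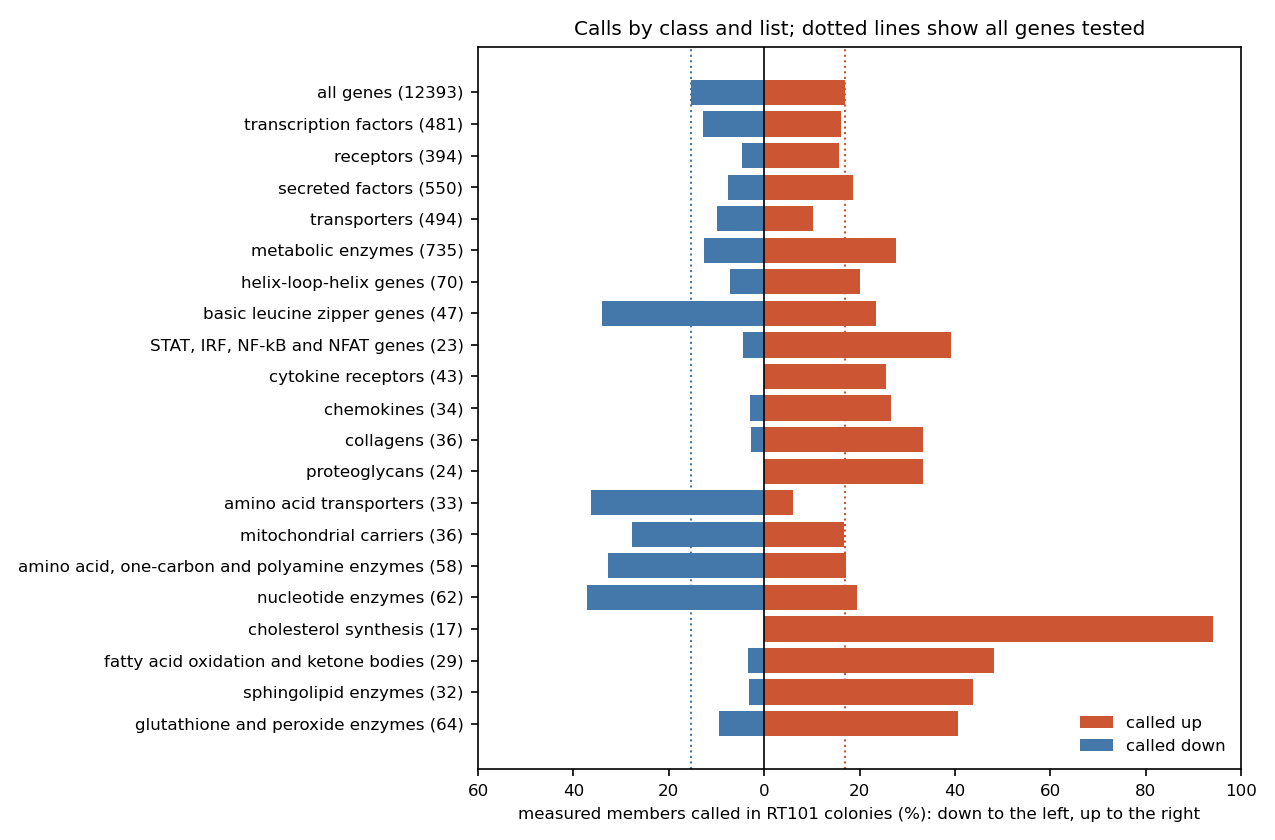
Share of measured members called in RT101 colonies (horizontal axis, percent; down to the left, up to the right), for all genes, the 5 classes and a selection of lists, with the number measured in brackets; dotted lines mark all genes at 17% up and 15.4% down. Cholesterol synthesis reaches furthest to the right, with 16 of 17 members up, and amino acid transporters and nucleotide enzymes are among the lists with more decreases than increases.

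Receptor genes that rose included receptors of growth factors, cytokines and innate signals. Pdgfrb, the beta receptor of platelet-derived growth factor on mesenchymal cells, read 6.19 and 6.27 in monolayers and 9.29, 9.28 and 9.32 in colonies (8.4-fold, log2 SE 0.12, limma adjusted p = 4.67e-10). Pdgfra, the alpha receptor, rose by 1.20; both genes are on the fibroblast marker list, whose part in their change was not tested. Tlr2, a sensor of bacterial lipopeptides, read 5.62 and 5.68 in monolayers and 7.91, 7.90 and 7.73 in colonies (4.59-fold, log2 SE 0.10, limma adjusted p = 2.67e-09). Gpr153, an orphan receptor, read 5.02 and 4.92 in monolayers and 6.94, 6.96 and 6.90 in colonies (3.89-fold, log2 SE 0.10, limma adjusted p = 1.06e-08). For each of these the colony arrays formed a tight group above the monolayer pair. Colec12, a scavenger receptor, rose by 1.92, and Lpar1, a receptor of lysophosphatidic acid, by 1.72.

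Cytokine receptors had 11 members up and 0 down of 43 (2 down by unadjusted limma p under 0.05, median 0.0627), and 10 and 2 under median centring; 1 fell without RT101 monolayer replicate 2, RT101 colonies replicate 3 or bFGF-JB6 colonies replicate 2 or 3. They included Il1r1, the signalling receptor of interleukin 1, at 1.82, and Osmr, the oncostatin M receptor, at 1.05. TNF and Toll-like receptors had 7 up and 2 down of 35, with the death receptor Fas at 1.38 and the costimulatory Tnfrsf9 at 1.31 (another probe set was at -0.32, not called). The falls were Tnfrsf21, another death receptor, from 6.54 and 6.43 to 5.62, 5.47 and 5.31 (2.02-fold, log2 SE 0.12, limma adjusted p = 1.61e-05), and Tnfrsf12a, the TWEAK receptor, from 10.28 and 10.46 to 9.49, 9.39 and 9.33 (1.95-fold, log2 SE 0.14, limma adjusted p = 8.88e-05). In both, all colony arrays were below the monolayer arrays.

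Epha2, an ephrin receptor of cell contacts, had the largest fall among receptors. It read 8.04 and 8.25 in monolayers and 6.42, 6.33 and 6.36 in colonies (3.42-fold, log2 SE 0.12, limma adjusted p = 1.19e-07), with no overlap. Integrins had 3 up and 3 down of 21 (5 down under median centring). The laminin-binding Itga3 fell by 0.82, and the vitronectin-binding Itgb5 rose by 1.55. Other Itga3 probe sets were at -0.43 and -0.55 (limma adjusted p = 0.0706 and 0.0522), neither called. In the Hedgehog pathway the receptor Ptch1, itself a target of that pathway, fell by 0.76 and the transducer Smo rose by 0.80. Another Ptch1 probe set was at -0.17 (limma adjusted p = 0.42), not called, and another Smo probe set was called at 0.79.

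Secreted factors ranged from a change of 5.54 for Dpt to -6.13 for Calcb. Dpt, the dermal matrix protein dermatopontin, read 4.05 and 3.88 in monolayers and 9.52, 9.54 and 9.46 in colonies (46.6-fold, log2 SE 0.11, limma adjusted p = 9.81e-13). Aspn, asporin, a small proteoglycan that binds collagen, read 2.87 and 2.68 in monolayers and 8.27, 8.32 and 8.25 in colonies (45.5-fold, log2 SE 0.20, limma adjusted p = 2.98e-10). Mgp, an inhibitor of calcification, read 4.13 and 3.38 in monolayers and 9.29, 9.21 and 9.13 in colonies (43.9-fold, log2 SE 0.18, limma adjusted p = 1.28e-10). These genes were near or below the lower quartile in monolayers and well above it in colonies. Pi16, a marker of fibroblasts, rose by 4.60 and Islr, an immunoglobulin-domain gene of mesenchymal cells, by 3.58. Another Pi16 probe set was called at 0.39.

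Collagens had 12 members up and 1 down of 36 (median 0.0352; 2 down under median centring or without bFGF-JB6 colonies replicate 3), and proteoglycans 8 and 0 of 24 (0 down by unadjusted limma p under 0.05, median 0.07). Of the proteoglycans 45.8% were low in monolayers, with little room to fall. Col3a1, a fibrillar collagen of loose connective tissue, read 9.58 and 9.49 in monolayers and 12.32, 12.43 and 12.38 in colonies (7.16-fold, log2 SE 0.10, limma adjusted p = 1.53e-10). The type VI collagen genes Col6a1 and Col6a2 rose by 2.30 and 1.83, and Col5a2 fell by 0.57. Among proteoglycans versican (Vcan) rose by 1.79 and decorin (Dcn) by 1.34. Matrix glycoproteins had 15 up and 5 down of 53 (median -0.0168), with fibronectin (Fn1) up by 1.25, tenascin C (Tnc) up by 1.52 and the elastic fibre gene Fbln5 at -1.30. Of secreted proteases 11 rose and 4 fell of 42. Mmp9, gelatinase B, read 4.93 and 5.37 in monolayers and 7.92, 7.91 and 7.67 in colonies (6.42-fold, log2 SE 0.14, limma adjusted p = 8.58e-09), without overlap, and Mmp2, gelatinase A, rose by 2.13. Adamts1, which cleaves versican, fell by 1.35. The fibroblast markers, 13 of 20 up, moved with these groups and overlap them (Col3a1, Col6a1, Dcn, Fn1, Dpt and Pi16 are on both); their part was not tested.

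Chemokines had 9 members up and 1 down of 34 (median 0.0119), and 38.2% were low in monolayers. Ccl8, a monocyte attractant, read 4.62 and 5.02 in monolayers and 9.04, 9.09 and 9.03 in colonies (18.9-fold, log2 SE 0.11, limma adjusted p = 1.43e-11). Cx3cl1, the membrane-tethered fractalkine, rose by 3.02, the eosinophil attractant Ccl11 by 3.02 and Cxcl12, a ligand of CXCR4, by 1.84. The second probe sets of Cxcl12 and Cx3cl1 were not called, at -0.45 (limma adjusted p = 0.0674), the opposite direction, and 0.33 (0.182). Complement and acute-phase genes had 8 up and 3 down of 36 (5 down under median centring). Lcn2, which binds bacterial siderophores, read 5.89 and 6.26 in monolayers and 9.79, 9.71 and 9.75 in colonies (12.8-fold, log2 SE 0.13, limma adjusted p = 2.59e-10). Saa3, a serum amyloid A protein, read 8.46 and 8.40 in monolayers and 11.89, 11.97 and 11.97 in colonies (11.4-fold, log2 SE 0.09, limma adjusted p = 1e-11). Ccl8, Lcn2 and Saa3 were higher on every colony array than on either monolayer array, and C1s1, a protease of the complement cascade, rose by 2.87. Of the 14 macrophage markers, Lyz2 and Cd14 rose with these genes, the summed signal was 348.4 to 351.8 on monolayer and 390.1 to 424 on colony arrays, and 7, including Ptprc, Adgre1 and Itgam, were low in both groups; the part of such cells in these changes was not tested.

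Growth factors moved both ways, 10 up and 6 down of 55 (median -0.0039). Fgf2, which encodes bFGF, read 3.66 and 3.65 in monolayers and 5.32, 5.36 and 4.82 in colonies (2.85-fold, log2 SE 0.23, limma adjusted p = 0.000165). The colony array of replicate 3 was the lowest of the colony arrays but above both monolayer arrays. Vegfc and Vegfd, lymphatic growth factors, rose by 1.38 and 1.55, and Vegfa, the blood vessel factor, fell by 0.60 (limma adjusted p = 0.0024), a call lost when its probe sets were averaged (limma adjusted p = 0.0893). Of the EGF receptor ligands, Btc rose by 1.31, and Hbegf read 9.81 and 9.75 in monolayers and 8.19, 8.10 and 7.99 in colonies (3.21-fold, log2 SE 0.11, limma adjusted p = 1.05e-07). TGF-beta and BMP ligands and antagonists had 10 up and 3 down of 43, with Ltbp2, a microfibril protein related to the latent TGF-beta binding proteins, up by 2.55 and Tgfb3 by 1.45. Ccn1, a matricellular target of TEAD factors, fell by 1.98.

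The largest falls among secreted factors were those of Calcb, Ptx3 and Angptl6. Calcb, a calcitonin gene-related peptide, read 9.33 and 9.07 in monolayers and 2.94, 3.21 and 3.06 in colonies (70.1-fold, log2 SE 0.12, limma adjusted p = 9.81e-13). Ptx3, a pentraxin of innate immunity, read 9.45 and 9.41 in monolayers and 4.71, 4.66 and 5.02 in colonies (24.7-fold, log2 SE 0.12, limma adjusted p = 1.43e-11). Angptl6, an angiopoietin-like growth factor, read 8.05 and 8.42 in monolayers and 6.02, 5.99 and 6.02 in colonies (4.69-fold, log2 SE 0.11, limma adjusted p = 4.15e-09). All colony arrays were far below the monolayer pair, and Calcb ended low. Ptx3 moved against Lcn2 and Saa3 of the same list. Serpinb2, an inhibitor of plasminogen activators, fell by 1.97 and was low in colonies.

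Among transporters, decreases included most of the amino acid uptake genes that were called. Of 33 amino acid transporters 12 fell, 8 of them by at least 2-fold, and 2 rose (median -0.0533; 1 up under median centring or without any 1 RT101 colony array). Slc7a5, the large neutral amino acid exchanger LAT1, read 9.98 and 10.19 in monolayers and 8.16, 8.10 and 8.03 in colonies (3.97-fold, log2 SE 0.16, limma adjusted p = 6.29e-07). Slc7a11, the cystine exchanger, read 5.99 and 6.0 in monolayers and 4.26, 4.58 and 4.26 in colonies (3.09-fold, log2 SE 0.17, limma adjusted p = 6.56e-06). Both stood lower on every colony array. Slc3a2, the chain that partners both, changed by -1.45, the glutamine carrier Slc1a5 by -1.73 and the glycine carrier Slc6a9 by -1.41. Mitochondrial carriers had 6 up and 10 down of 36 (median -0.0779; 6 down without RT101 monolayer replicate 2). Slc25a33, a pyrimidine nucleotide carrier, read 9.67 and 9.53 in monolayers and 7.22, 7.32 and 7.31 in colonies (4.99-fold, log2 SE 0.11, limma adjusted p = 2.85e-09), and Slc25a20, the acylcarnitine carrier of fatty acid oxidation, rose by 1.08.

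Steap1, a gene of the metalloreductase family, read 10.88 and 10.85 in monolayers and 8.86, 8.88 and 8.77 in colonies (4.08-fold, log2 SE 0.10, limma adjusted p = 6.88e-09). P2rx3, an ATP-gated channel, read 5.93 and 6.87 in monolayers and 4.59, 4.55 and 4.47 in colonies (3.64-fold, log2 SE 0.20, limma adjusted p = 7.29e-06). Both fell without overlap, and the monolayer arrays of P2rx3 stood further apart from each other than those of Steap1. Ank, through which cells release the calcification inhibitor pyrophosphate, read 9.59 and 9.61 in monolayers and 11.68, 11.75 and 11.73 in colonies (4.36-fold, log2 SE 0.10, limma adjusted p = 3.17e-09). Fxyd1, a regulator of the sodium pump, read 5.37 and 5.82 in monolayers and 7.82, 7.58 and 7.43 in colonies (4.04-fold, log2 SE 0.14, limma adjusted p = 1.02e-07). Aqp1, a water channel, read 6.78 and 7.07 in monolayers and 8.87, 8.82 and 8.67 in colonies (3.63-fold, log2 SE 0.15, limma adjusted p = 3.7e-07). In these 3 genes all colony arrays were above the monolayer pair. Abcd2, a peroxisomal fatty acid transporter, rose by 1.78 from a low monolayer level, and Slc12a5, a potassium chloride cotransporter, by 1.67.

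Enzymes of serine, one-carbon, asparagine and cysteine metabolism fell alongside these transporters. Of 58 amino acid, one-carbon and polyamine enzymes 19 fell, 12 by at least 2-fold, and 10 rose (median -0.105). Cth, which makes cysteine from cystathionine, read 10.87 and 11.03 in monolayers and 6.47, 6.64 and 6.42 in colonies (21.7-fold, log2 SE 0.11, limma adjusted p = 8.61e-12). Chac1, which degrades glutathione, read 10.79 and 10.82 in monolayers and 7.39, 7.20 and 7.12 in colonies (11.9-fold, log2 SE 0.11, limma adjusted p = 4.45e-11). The colony arrays of both genes were far below the monolayer arrays. The enzymes of serine synthesis fell, with Psph at -2.43, Phgdh at -1.27 and Psat1 at -0.90. The mitochondrial folate enzymes Mthfd2 and Shmt2 changed by -1.99 and -1.31, the transaminase Gpt2 by -1.99, Aldh18a1 of proline synthesis by -1.82 and asparagine synthetase (Asns) by -1.40.

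Pck2, the mitochondrial PEP carboxykinase, fell by 1.65, and Trib3, a pseudokinase induced through ATF4, read 9.27 and 9.38 in monolayers and 6.22, 6.18 and 6.19 in colonies (8.73-fold, log2 SE 0.08, limma adjusted p = 1.43e-11). Csad, of taurine synthesis, rose by 1.92. Polyamine genes split, with Odc1, the first enzyme of their synthesis, at -1.11 and the spermine oxidase Smox at 1.49. Nucleotide enzymes had 12 members up and 23 down of 62 (median -0.14; 7 up without RT101 monolayer replicate 1), with CTP synthase (Ctps) at -1.26 and the nicotinamide methyltransferase Nnmt at -1.90.

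Promoters of 4 genes are shown because each gene fell and its promoter holds TGATGNAA, the letters of a composite site for ATF4 with a C/EBP partner, searched on both strands with N as any base. Each runs 5′ to 3′ on the gene's strand from 250 bases before to 50 after the RefSeq start (GRCm38.p6), with matches in capitals. Chac1 lies at chr2:119350992-119351291 on the plus strand, Slc7a11 at chr3:50443564-50443863 on the minus strand, Fgf21 at chr7:45615441-45615740 on the minus strand and Pck2 at chr14:55540016-55540315 on the plus strand. The Slc7a11 promoter has 2 matches and the others 1 each. The letters also stood in promoters of Asns, Atf3, Jdp2, Trib3 and Fbln5, which fell, and of Aspn, Pi16 and Idi1, which rose. They were not found in those of Phgdh, Psat1, Psph, Mthfd2, Aldh18a1 and Slc6a9, which fell.
Chac1: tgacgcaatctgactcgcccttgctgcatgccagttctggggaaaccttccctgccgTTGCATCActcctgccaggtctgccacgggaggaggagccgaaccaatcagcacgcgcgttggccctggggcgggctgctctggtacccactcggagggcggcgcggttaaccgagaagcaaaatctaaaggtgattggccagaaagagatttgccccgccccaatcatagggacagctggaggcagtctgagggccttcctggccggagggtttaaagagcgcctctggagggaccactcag
Slc7a11: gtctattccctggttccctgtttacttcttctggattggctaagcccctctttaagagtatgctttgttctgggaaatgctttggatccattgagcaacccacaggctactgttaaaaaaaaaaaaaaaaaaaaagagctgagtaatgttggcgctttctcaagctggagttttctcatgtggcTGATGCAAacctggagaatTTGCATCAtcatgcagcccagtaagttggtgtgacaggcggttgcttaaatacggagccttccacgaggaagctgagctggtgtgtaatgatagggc
Fgf21: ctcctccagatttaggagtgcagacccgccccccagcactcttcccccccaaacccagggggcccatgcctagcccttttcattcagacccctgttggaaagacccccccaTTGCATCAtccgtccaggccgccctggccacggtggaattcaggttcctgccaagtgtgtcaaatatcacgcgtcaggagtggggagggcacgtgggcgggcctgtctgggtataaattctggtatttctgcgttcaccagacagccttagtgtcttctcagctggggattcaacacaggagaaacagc
Pck2: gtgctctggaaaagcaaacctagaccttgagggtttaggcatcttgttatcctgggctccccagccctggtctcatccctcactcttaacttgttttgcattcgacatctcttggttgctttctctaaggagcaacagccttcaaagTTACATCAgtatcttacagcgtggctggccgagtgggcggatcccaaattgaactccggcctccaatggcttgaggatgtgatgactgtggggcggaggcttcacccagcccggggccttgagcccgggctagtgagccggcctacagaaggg

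Fgf21, a stress-induced metabolic hormone, read 6.38 and 6.51 in monolayers and 4.34, 4.18 and 4.52 in colonies (4.29-fold, log2 SE 0.14, limma adjusted p = 1.06e-07), so it fell like Chac1, Slc7a11 and Pck2. RefSeq promoters were found for 9882 of the 12393 genes, 12559 windows in all. TGATGNAA stood in 25 of 310 windows of genes that fell by at least 2-fold (8.06%), in 14 of 454 windows of genes that rose by at least 2-fold (3.08%) and in 325 of all windows (2.59%). In the same order, the E-box CACGTG stood in 13.23%, 6.17% and 9.11%, the antioxidant element TGACNNNGC in 17.74%, 12.78% and 13.75%, and the cyclic AMP element TGACGTCA in 3.23%, 0.88% and 2.52%. AP-1 letters TGANTCA stood in 6.45%, 7.71% and 6.45%, TEAD letters GGAATG in 14.84%, 16.08% and 13.09%, and the NF-kB motif in 1.94%, 2.64% and 1.67%. The CCAAT box stood in 34.84%, 37.89% and 37.12%, the CArG box in 0.97%, 1.98% and 1.47%, and the sterol element TCACNCCAC in 0.65%, 0.88% and 1.22%. Of 16 promoters of cholesterol synthesis genes that rose, 13 held CCAAT (81.25%) and 1 the sterol letters. All motifs were searched on both strands, some can overlap, no share was tested, and a match is a description of letters.

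**Figure D3:**
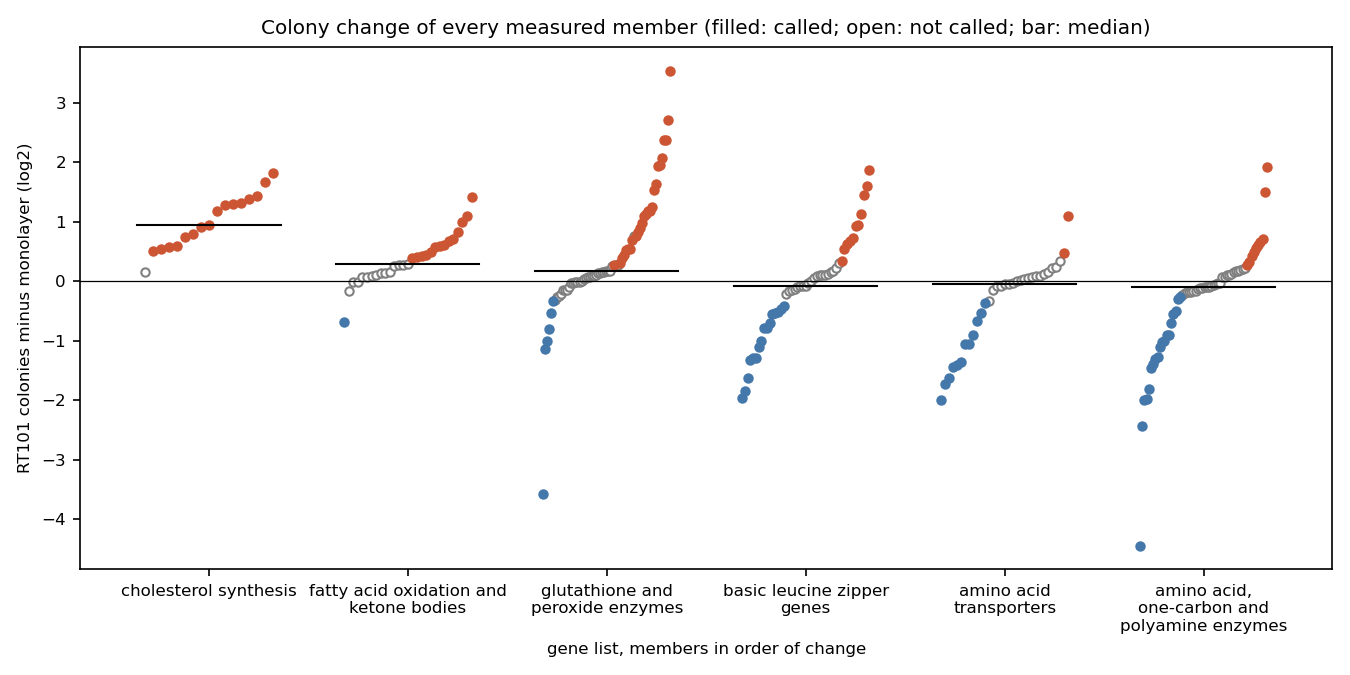
Colony change (log2, vertical axis) of every measured member of 6 gene lists, ordered by size within each list; filled points were called, open points were not, and bars are list medians. In cholesterol synthesis 16 of 17 points are filled and above 0, and the lowest points of amino acid transporters and enzymes are Slc7a5 at -1.99 and Cth at -4.44.

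Most called enzymes of cholesterol and fatty acid metabolism rose. Cholesterol synthesis had 16 members up and 0 down of 17 (0 down by unadjusted limma p under 0.05, median 0.942), and 15 and 0 under median centring; Sc5d, at 0.16 (limma adjusted p = 0.326), was not called. Idi1, isopentenyl diphosphate isomerase, read 7.73 and 7.94 in monolayers and 9.59, 9.66 and 9.70 in colonies (3.51-fold, log2 SE 0.11, limma adjusted p = 3.01e-08). Nsdhl, a sterol dehydrogenase, read 8.05 and 7.80 in monolayers and 9.60, 9.64 and 9.54 in colonies (3.17-fold, log2 SE 0.10, limma adjusted p = 2.67e-08). Every colony array was higher in both. Fdps and Hmgcs1, of the mevalonate route, rose by 1.44 and 1.29, and Sqle, squalene epoxidase, by 0.51; another Fdps probe set was at -0.15, not called. Fatty acid synthesis, elongation and desaturation had 9 up and 2 down of 27 (median 0.129; 1 down without either monolayer array or without colony replicate 3), with the desaturase Scd1 up by 1.45, the acetate-activating Acss2 up by 1.34 and Fads3 at -2.16.

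Fatty acid oxidation and ketone body genes had 14 members up and 1 down of 29 (median 0.285). Cpt1a, which gates fatty acid entry into mitochondria, read 7.98 and 7.95 in monolayers and 9.44, 9.34 and 9.34 in colonies (2.66-fold, log2 SE 0.08, limma adjusted p = 3.24e-08), and the thiolase Acaa2 rose by 1.10. Sphingolipid enzymes had 14 up and 1 down of 32 (median 0.187; 9 up without RT101 monolayer replicate 1), among them the lysosomal Arsa at 1.14 and Asah1 at 0.94 and the ceramide synthase Cers4 at 1.36. Phospholipid and glycerolipid enzymes had 17 up and 6 down of 61 (median 0.02). Chka, choline kinase alpha, the first step of phosphatidylcholine synthesis from choline, read 10.05 and 10.21 in monolayers and 7.14, 6.92 and 6.74 in colonies (9.14-fold, log2 SE 0.13, limma adjusted p = 1.13e-09). It stood lower on every colony array, while the lipid phosphatase Plpp3 rose by 1.93. Glycolysis and pyruvate genes had 9 up and 5 down of 32, with hexokinase 2 (Hk2) at -1.37, hexokinase 1 (Hk1) up by 0.85 and Pdk2, which restrains pyruvate dehydrogenase, up by 1.29. Idh1, which makes NADPH in the cytosol, rose by 1.43.

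Glutathione and peroxide enzymes had 26 members up and 6 down of 64 (median 0.168), and 14 rose and 2 fell by at least 2-fold. The largest fall in the list was that of Chac1, described above, at -3.57. Prxl2a, a peroxiredoxin-like gene, read 3.35 and 3.42 in monolayers, a low level, and 6.84, 6.96 and 6.97 in colonies (11.6-fold, log2 SE 0.09, limma adjusted p = 1e-11). Nqo1, a quinone reductase, read 7.26 and 7.40 in monolayers and 9.98, 10.14 and 9.97 in colonies (6.5-fold, log2 SE 0.11, limma adjusted p = 9.12e-10). In both, no colony array came near the monolayer values. Mgst3 and Mgst1, microsomal glutathione transferases, rose by 2.37 and 2.37, and Gstm1, whose probe set may read close relatives, by 2.07. The other probe sets of Mgst3, Mgst1 and Prxl2a were not called, at 0.24, 0.17 and -0.21 (limma adjusted p = 0.169, 0.501 and 0.175), the last in the opposite direction. Thioredoxin reductase 1 (Txnrd1), often grouped with Nqo1 as an oxidant-responsive gene, fell by 0.80. The stress-responsive sestrins split, with Sesn1 up by 1.93 and Sesn2 at -1.14.

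Enzymes of aldehydes, alcohols, steroids and foreign compounds had 28 up and 13 down of 167 (median -0.0032), with 20 down under median centring. As shares, 16.8% rose and 7.78% fell, against 17% and 15.4% of all genes. In RT101 monolayers 52.1% of these enzymes were low, with little room to fall. Ces1f, a carboxylesterase with close relatives, read 3.01 and 2.87 in monolayers and 6.12, 6.28 and 6.28 in colonies (9.74-fold, log2 SE 0.11, limma adjusted p = 1.28e-10). Cbr2, a carbonyl reductase, read 6.82 and 6.88 in monolayers and 9.83, 9.68 and 9.71 in colonies (7.4-fold, log2 SE 0.10, limma adjusted p = 2.59e-10). Both rose without overlap, Ces1f from a low level, and the retinol dehydrogenase Rdh10 and the aldehyde oxidase Aox1 rose by 2.26 and 2.04. Car6, a secreted carbonic anhydrase, had the largest change of all genes tested. It read 10.97 and 10.85 in monolayers and 3.89, 3.94 and 3.96 in colonies (127-fold, log2 SE 0.13, limma adjusted p = 7.37e-13), just above the lower quartile. In prostaglandin synthesis Ptges, the terminal prostaglandin E synthase, rose by 1.97 and Ptgs2, cyclooxygenase 2, fell by 0.99. Glycosyltransferases, sulfotransferases and hyaluronan enzymes had 27 up and 10 down of 114 (6 down without RT101 monolayer replicate 1), with the sialyltransferase St3gal1 up by 1.67 and the heparan sulfate epimerase Glce at -1.56.

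The colony changes of RT101 and bFGF-JB6, which share no arrays, were compared in the same model. Because only bFGF-JB6 received bFGF, line and bFGF cannot be told apart in these comparisons. The difference was called for 3430 genes (27.7%), with the RT101 change more positive for 1856 (15%) and more negative for 1574 (12.7%). In bFGF-JB6 3642 genes (29.4%) were called, 1751 (14.1%) up and 1891 (15.3%) down. Of cholesterol synthesis genes 0 rose (1 by unadjusted limma p under 0.05) and 7 fell in bFGF-JB6, and the difference was called positive for 17 of 17, although Sc5d lost its call with averaged probe sets (limma adjusted p = 0.156) or without RT101 monolayer replicate 1 (0.062). Idi1 had changes of 1.81 in RT101 and -0.68 in bFGF-JB6 (difference 2.50, SE 0.14, limma adjusted p = 4.55e-08). Amino acid transporters had 6 up and 3 down in bFGF-JB6, with the difference called negative for 11 and positive for 2. For Slc7a11 the changes were -1.63 and 1.80 (difference -3.42, SE 0.23, limma adjusted p = 1.6e-07). Atf4 had changes of -1.01 and 0.87 (difference -1.88, SE 0.13, limma adjusted p = 2.14e-07), and basic leucine zipper genes had 16 negative and 6 positive differences.

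Among regulators Ahr had changes of 2.03 in RT101 and -0.90 in bFGF-JB6 (difference 2.93), Fos of 0.95 and -1.34 (2.29) and Snai2 of -2.01 and 0.50 (-2.51). Pdgfrb, among receptors, had 3.07 and 0.35 (2.72). Of secreted factors Pi16 had 4.60 and -0.52 (5.12), Cxcl12 1.84 and 4.83 (-2.99) and the EGF receptor ligand Btc 1.31 and -1.63 (2.95). All of these differences were called, with limma adjusted p of at most 0.05. Il33, an alarmin, had a difference of 5.20, made of 0.40 in RT101, where it was low in both groups, and -4.80 in bFGF-JB6. Car6 and Calcb had differences of -6.89 and -6.11. In bFGF-JB6 their means were 4.08 in monolayers and 3.98 in colonies for Car6, and 2.90 and 2.89 for Calcb, so only RT101 monolayers had a high signal. The difference was not called for the collagen Col6a1 (-0.031, SE 0.13, limma adjusted p = 0.897), for Dbp (-0.074, SE 0.19, limma adjusted p = 0.821) or for Smo (0.021, SE 0.16, limma adjusted p = 0.944).

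**Figure D4:**
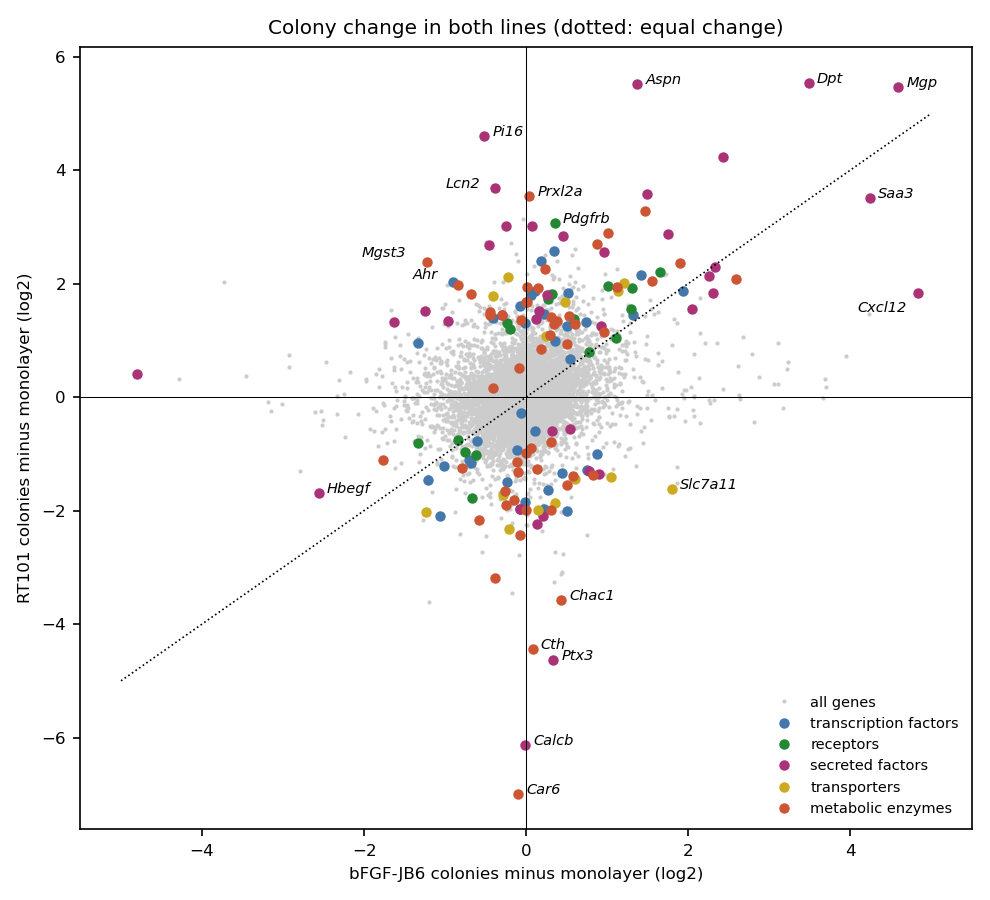
Colony change in RT101 (vertical axis, log2) against that in bFGF-JB6 (horizontal axis, log2); grey points are all 12393 genes, coloured points the genes of the 5 classes named in the text, and the dotted line marks equal change. Slc7a11 lies at -1.63 for RT101 and 1.80 for bFGF-JB6, Pdgfrb at 3.07 and 0.35, and Car6 and Calcb lie lowest, close to 0 on the horizontal axis.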

How the data were processed

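Biotin-labelled RNA of each sample was read on 1 Affymetrix mouse array, and samples were grouped by title. The authors made the deposited log2 signals per probe set with RMA (version not given), per the submitters' processing notes. RMA brings arrays to a common distribution and gives no detection calls. Scanning and other settings are not given in the sources used here. No scaling or low-value filter was added in the main analysis, and the number of arrays, which carry no counts, limits precision.

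The table holds 22690 probe sets: 64 controls, 20380 with 1 gene symbol, 691 with several and 1555 with none. For each of 12393 genes the single-gene probe set with the highest mean signal was kept, and 4956 genes had more than 1. Probe sets of close relatives (GST, carboxylesterase and similar families) may read several members.

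limma 3.58.1 in R 4.3.3 (lmFit, eBayes) was fitted to all 11 arrays in 4 groups, with 7 residual and 6.12 prior degrees of freedom. Genes with a Benjamini-Hochberg adjusted p below 0.05 over all 12393 genes were called, and "rose" and "fell" refer to called genes. Errors are standard errors of the log2 change. On simulated data with 200 of 12393 genes changed, the RT101 test recovered 40% of changes of 0.5 and 96% of changes of 1 on the log2 scale, with 5 false calls of 141. For the difference between lines it recovered 14% and 83%, with 3 false of 100. Far fewer genes were changed in the simulation than the 32.4% called here, which alters the adjusted p. Its noise was drawn independently for each array from the spread within groups. The recovery and false-call rates therefore need not hold for these data.

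The comparison, classes and lists were chosen with earlier results of these data known. Lists were filled by gene name and family, and a few members lie outside a list's name. Genes were named among called genes without overlap between groups: the largest changes over all genes, in each class and in each list, and the largest differences between lines. Others, named for their role, were chosen after their values were seen. RefSeq promoters were matched by gene number. Protein sequences were not used here. Python 3.11.15 and matplotlib 3.10.9 were used for tables and figures. Alternatives were replicate blocks, the 5 RT101 arrays alone, averaged or separate probe sets, a filter on dim genes, other scalings and variance models, and each array left out; leaving out 2 bFGF-JB6 arrays with raised 3′ control signal was chosen after seeing the data.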

Additional observations from a re-analysis of the deposited data

Results flagged for a closer look

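For 139 of the 160 genes named above, the colony change of RT101 differed from that of bFGF-JB6 by the test of the difference (limma adjusted p of at most 0.05), a background of 27.7% over all genes. Many of these genes were named for large RT101 changes or large differences between lines. Their share therefore follows in part from that choice and does not measure how far the lines differ. Each value in brackets is the RT101 change minus the bFGF-JB6 change on the log2 scale; its sign does not say which line changed. The groups of 2 and 3 arrays are too small for the check of single outlying samples.

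The genes called in opposite directions in the 2 lines came first. Among transcription factors, the differences were those of Ahr (2.93), Snai2 (-2.51), Fos (2.29), Jdp2 (-2.04), Atf4 (-1.88) and Atf3 (-1.77). Among receptors, this held for Tnfrsf9 (1.54). In the class of secreted factors it held for Il33 (5.20), Pi16 (5.12), Ptx3 (-4.96), Lcn2 (4.07), Mmp9 (3.14), Btc (2.95), Tnc (2.76), Dcn (2.30), Adamts1 (-2.25), Fbln5 (-2.06), Tgfb3 (1.75) and Col5a2 (-1.11). The transporters with this pattern were Slc7a11 (-3.42), Slc6a9 (-2.45) and Slc3a2 (-2.05). The metabolic enzymes included Chac1 (-4.0), Mgst3 (3.60), Ptges (2.82), Idi1 (2.50), Hk2 (-2.20), Glce (-2.05), Asns (-1.97), Smox (1.94), Fdps (1.88), Scd1 (1.76) and Txnrd1 (-1.10). Outside the 5 classes it held for Trib3 (-3.55).

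Other genes were called in RT101 and not in bFGF-JB6. Among transcription factors, the differences were those of Id1 (2.21), Nfil3 (-2.18), Ddit3 (-1.90), Cebpg (-1.84), Mxd4 (1.80), Id3 (1.77), Tcf4 (1.74), Cebpd (1.67), Wwtr1 (1.31), Klf5 (-1.27), Tead1 (-0.82), Clock (-0.72) and Srebf2 (0.63). Among receptors, this held for Lpar1 (1.45) and Pdgfra (1.41). In the class of secreted factors it held for Calcb (-6.11), Cx3cl1 (3.27), Ccl11 (2.95), Angptl6 (-2.36), Fgf21 (-2.31), Ccn1 (-1.90), Serpinb2 (-1.89), Fgf2 (1.35), Vegfc (1.26) and Vegfa (-0.92). The transporters with this pattern were Ank (2.35), P2rx3 (-2.21), Abcd2 (2.19), Slc7a5 (-2.14), Slc25a33 (-2.10) and Slc25a20 (0.83). The metabolic enzymes included Car6 (-6.89), Cth (-4.52), Prxl2a (3.50), Psph (-2.35), Gpt2 (-2.29), Rdh10 (2.03), Mthfd2 (-1.99), Plpp3 (1.92), Csad (1.77), St3gal1 (1.67), Aldh18a1 (-1.67), Nnmt (-1.65), Nsdhl (1.65), Cers4 (1.42), Phgdh (-1.40), Shmt2 (-1.21), Sesn2 (-1.03), Ptgs2 (-0.98), Psat1 (-0.96), Hmgcs1 (0.94), Acaa2 (0.81), Hk1 (0.66) and Sqle (0.60).

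A further group moved the same way in both lines and more in RT101. Among transcription factors, the differences were those of Prrx2 (2.23), Id2 (1.33), Stat3 (1.24), Myc (-1.02), Snai1 (0.74), Bhlhe40 (0.73), Stat5a (0.59) and Fosl1 (-0.40). Among receptors, this held for Pdgfrb (2.72), Il1r1 (1.50), Epha2 (-1.10), Gpr153 (0.96), Fas (0.79), Colec12 (0.62) and Tlr2 (0.54). In the class of secreted factors it held for Aspn (4.14), Col3a1 (2.38), Islr (2.09), Dpt (2.06), Ccl8 (1.81), Ltbp2 (1.59), Vcan (1.54), C1s1 (1.12) and Mgp (0.86). The transporters with this pattern were Slc1a5 (-1.44), Slc12a5 (1.19), Fxyd1 (0.81), Steap1 (-0.80) and Aqp1 (0.73). The metabolic enzymes included Chka (-2.81), Cbr2 (1.87), Nqo1 (1.83), Ces1f (1.81), Fads3 (-1.57), Pck2 (-1.39), Cpt1a (1.10), Acss2 (0.96), Idh1 (0.90), Sesn1 (0.81), Aox1 (0.48), Ctps (-0.46), Mgst1 (0.46) and Asah1 (0.44). Outside the 5 classes it held for Ankrd1 (-2.42).

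The remaining genes called in both lines moved the same way and less in RT101. They were the secreted factors Cxcl12 (-2.99), Hbegf (0.87), Saa3 (-0.73) and Col6a2 (-0.47), and the metabolic enzymes Odc1 (0.67) and Gstm1 (-0.52). Sc5d (0.56), a late enzyme of cholesterol synthesis, was called in bFGF-JB6 and not in RT101.

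The groups above also use the calls within each line. Il33 and Vegfa lost the RT101 call in at least 1 alternative, as given elsewhere in this text, so their place rests on the processing. The call of the difference was lost in at least 1 alternative for 13 of these genes, whose place rests on the processing as well. With the number of alternatives and the range of the limma adjusted p in them, they were Aox1 (12, 0.0515 to 0.153), Snai1 (11, 0.0559 to 0.153), Stat5a (11, 0.0507 to 0.223), Colec12 (8, 0.0532 to 0.094), Srebf2 (6, 0.0511 to 0.105), Fosl1 (5, 0.0525 to 0.36), Asah1 (2, 0.0554 to 0.0839), Mgp (2, 0.065 to 0.0883), Mgst1 (2, 0.0597 to 0.149) and Sc5d (2, 0.062 to 0.156). In 1 alternative each, it was lost for Clock and Gstm1 with averaged probe sets (limma adjusted p = 0.153 and 0.158) and for Aqp1 without RT101 monolayer replicate 1 (0.0831). Leaving out RT101 monolayer replicate 1 ended the call also for Aox1, Colec12, Mgst1, Sc5d, Snai1 and Srebf2, and leaving out replicate 2 for Aox1, Asah1, Colec12, Fosl1, Mgp, Srebf2 and Stat5a. Leaving out 1 RT101 colony array or 1 bFGF-JB6 array ended it for Aox1, Colec12, Snai1, Srebf2 and Stat5a, and leaving out RT101 colonies replicate 2 or 3 for Fosl1.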

How the results depend on the processing

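Read from the brightest probe set or averaged over probe sets, the 159 named genes called in RT101 colonies kept their direction in all alternatives, and 155 kept the call in each. Read singly, 8 other probe sets had the opposite direction without a call (those of Clock, Cxcl12, Fdps, Id2, Jdp2, Prxl2a, Tef and Tnfrsf9), as given above. Arntl, Clock and Vegfa lost it as given above, and Il33 lost it under median centring (limma adjusted p = 0.0529) and without RT101 colonies replicate 1 or RT101 monolayer replicate 1 (0.0787 and 0.248). Of the 139 called differences between lines, 13 lost the call in at least 1 alternative, as named above; the replicate blocks took part in this for Aox1 (limma adjusted p = 0.061 by title number and 0.0541 by letter), Fosl1 (0.0525 by number), Snai1 (0.0687 by letter) and Stat5a (0.0615 by letter). Counts over all genes or a class that moved by over 1.5 times were receptors down, 28 with only the 5 RT101 arrays, 34 with median centring and 29 with every probe set tested, and secreted factors down, 23 when genes below the median level were dropped, so that fewer were tested. With every probe set tested, where a gene can count more than once, 2992 fell, 642 rose and 508 fell by at least 2-fold, 123 transcription factors and 85 transporters rose, and 75 transporters and 141 metabolic enzymes fell.

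The text gives 56 counts for 28 lists, up and down; 35 moved by over 1.5 times in at least 1 alternative, and 21 did so in an alternative other than that with every probe set tested. Those moved by leaving out 1 array are given beside the list.

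With each array left out in turn, genes up ranged from 1566 to 2354 and down from 1469 to 2194, and at 2-fold from 406 to 454 and 292 to 304. Positive differences ranged from 1461 to 1968 and negative from 1205 to 1696. By class, the ranges up and down were 64 to 90 and 43 to 66 for transcription factors, 44 to 67 and 13 to 24 for receptors, 91 to 110 and 35 to 47 for secreted factors, 38 to 61 and 41 to 57 for transporters, and 163 to 223 and 72 to 105 for metabolic enzymes. Where an alternative left 1 monolayer array, that array was assumed to vary like the other groups.

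The title numbers were not taken to pair the samples. Deviations of same-numbered RT101 arrays correlated at -0.253 and -0.15, and those of arrays with the same letter in their descriptions at 0.15 and -0.134. Deviations of the monolayer pair from their mean are mirror images, so these values cannot show whether samples share a culture. With the title number as a replicate block 2051 genes rose and 1836 fell, and with the letter 1989 and 1923; the differences were 1793 positive and 1497 negative, and 1776 and 1586. Signals near the lower quartile limit folds, and 2527 genes lay at or below it in both RT101 groups.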
